A study of Mus musculus with 6 samples.

Results

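The nuclear-encoded subunits of the mitochondrial respiratory chain and ATP synthase were followed in the proximal colon of mice. The set held every probe set whose only gene symbol in the platform annotation begins with Ndufa, Ndufb, Ndufc, Ndufs, Ndufv, Uqcr, Cox4 to Cox8 or Atp5, or is Sdha, Sdhb, Sdhc or Sdhd. It came to 156 of 22690 probe sets, for 84 genes, and no measured value entered the choice. By complex these were 34 genes of complex I, 4 of complex II, 8 of complex III, 16 of complex IV and 17 of complex V, with 5 complex I assembly factors (Ndufaf) that the prefix also takes in. One group of 3 arrays carried RNA from heterozygotes, with a gene-trap allele of Mthfd1 obtained from BayGenomics, and the other 3 RNA from wild-type mice. All 6 mice were 8 weeks old and had eaten the AIN-93G control diet for the 5 weeks since weaning. The colons were flushed, rinsed and frozen in RNALater, and each array is labelled as a biological replicate of its genotype. The series asks whether Mthfd1, an enzyme of cytosolic folate metabolism, modifies intestinal tumour formation. The sources used here give neither strain nor sex, nor the position of the trap within the gene.

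Complex I (NADH dehydrogenase) and complex II (succinate dehydrogenase) pass electrons to ubiquinone, complex III (cytochrome bc1) passes them on to cytochrome c, and complex IV (cytochrome c oxidase) hands them to oxygen. Complexes I, III and IV pump protons across the inner mitochondrial membrane, and complex V (ATP synthase) lets them back to make ATP. Apart from complex II these complexes also hold subunits made from mitochondrial DNA, so each needs matched products of both genomes. Absorptive cells of the colon, which burn butyrate made by gut bacteria, are known for a high oxidative capacity.

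The genes are scattered over the genome, and nuclear respiratory factor 1 (NRF1), ETS factors such as GABPA (also called NRF2) and YY1 are the regulators best known for binding near their starts. Promoter sequence from RefSeq (GRCm38.p6), from 250 bases before to 50 after each start, was matched to 70 of the 84 genes and searched on both strands for GCGCA and GCGC parted by any 1 base (NRF1), CCGGAAG (ETS) and AAGATGGC (YY1). The ETS and YY1 letters can share AAG where they adjoin, and such a promoter counts for both. The NRF1 letters were found for 16 of 70 members (22.9%), against 5.19% of all 27025 genes in the table and 12.2% of the 6628 other genes tested on the arrays. The ETS letters were found for 18 members (25.7%), against 9.93% of all genes and 20.7% of other tested genes. The YY1 letters were found for 9 members (12.9%), against 3.19% of all genes and 5.48% of other tested genes. At least 1 of the 3 was present for 38 members (54.3%), against 16.4% of all genes and 33.5% of other tested genes. The sequences below are the 100 bases before the start of 1 or more members of each complex, read 5′ to 3′ on the minus strand on which these genes lie, and were picked for holding a match, to show how the letters are placed. Ndufa5, Atp5c1 and Atp5j each have another start in the table, whose 100 bases held no match and are not shown. Capitals mark a match to 1 of the 3 motifs in either orientation, and such a match is a description of the letters only.
Ndufa5: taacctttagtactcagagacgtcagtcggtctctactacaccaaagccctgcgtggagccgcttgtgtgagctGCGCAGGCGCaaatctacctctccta
Sdha: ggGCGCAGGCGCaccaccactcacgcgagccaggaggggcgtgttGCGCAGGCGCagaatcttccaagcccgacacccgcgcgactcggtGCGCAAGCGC
Sdhd: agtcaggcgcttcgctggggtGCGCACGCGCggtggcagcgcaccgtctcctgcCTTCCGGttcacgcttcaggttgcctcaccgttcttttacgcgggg
Uqcrh: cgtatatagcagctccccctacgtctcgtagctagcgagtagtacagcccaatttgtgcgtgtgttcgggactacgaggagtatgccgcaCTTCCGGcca
Cox6b1: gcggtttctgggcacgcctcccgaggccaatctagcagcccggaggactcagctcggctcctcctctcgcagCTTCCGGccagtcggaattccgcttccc
Atp5c1: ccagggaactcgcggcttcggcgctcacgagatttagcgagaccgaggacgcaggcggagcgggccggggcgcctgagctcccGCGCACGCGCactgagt
Atp5j: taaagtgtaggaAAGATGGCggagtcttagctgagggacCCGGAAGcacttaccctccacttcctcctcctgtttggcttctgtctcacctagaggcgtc
In GRCm38.p6 they lie at chr6:24527691-24527790 (Ndufa5), chr13:74350241-74350340 (Sdha), chr9:50603850-50603949 (Sdhd), chr4:116075071-116075170 (Uqcrh), chr7:30626115-30626214 (Cox6b1), chr2:10080433-10080532 (Atp5c1) and chr16:84834977-84835076 (Atp5j). Sdha carried 3 NRF1 matches within the 100 bases, Sdhd 1 NRF1 and 1 ETS match, and Atp5j 1 YY1 and 1 ETS match. Ndufa5 and Atp5c1 carried an NRF1 match, and Uqcrh and Cox6b1 an ETS match in the reverse orientation.

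The trapped gene itself was measured first. The brightest Mthfd1 probe set read 453, 509.6 and 549 in heterozygous colons, against 949.9, 839 and 881 in wild-type colons, and the groups did not overlap. Its mean was 504 ± 48.4 in heterozygous and 890.0 ± 56.1 in wild-type colons (SD, n = 3 each), or 56.6% of the wild-type level. On the log2 scale the difference was -0.80 (SE 0.12), with an exact two-sided permutation p of 0.1, the lowest that 3 against 3 can reach, and a limma adjusted p of 0.125. The other probe set above the filter gave 49.0% of the wild-type level (limma adjusted p = 0.116). With the probe sets averaged the log2 difference was -0.89 and passed the threshold (limma adjusted p = 0.0426). Since the trap's position is unknown, these values check the genotype only where a probe set is 3′ of the trap. Absorptive-cell markers of the colon were present on every array, with the summed signal of 8 colonocyte genes at 62711 to 73462 in heterozygous and 64638 to 71613 in wild-type colons. Ileal genes varied far more, with a summed signal of 17627 to 31411 in heterozygous and 15403 to 37239 in wild-type colons, and no brown fat marker (0 of 4) passed the filter on low signal.

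No member passed an adjusted p of 0.05 between the genotypes. Of the 156 probe sets 143 passed the filter (a mean signal of at least 95.8), and 0 of 143 were called by limma with Benjamini-Hochberg adjustment over all 13576 tested probe sets. Across the whole array the count was also 0 (0%), and the smallest adjusted p of a member was 0.588. At an unadjusted p under 0.05 there were 3 member probe sets, all lower in heterozygous colons. Over all tested probe sets the share was 5.68%, with 3.12% higher and 2.56% lower in heterozygous colons. Taking the brightest probe set of each gene left 82 tested genes. In heterozygous colons 51 of them were higher and 31 lower, or 60 and 22 with array medians centred. Of all 8243 tested genes 51.5% were higher in the values as deposited, and this share was not taken with medians centred. The median log2 fold change was 0.02 over the members and 0.01 over all tested genes. These are whole-tissue samples, in which fewer cells of a type and less RNA per cell cannot be told apart. The summed signal of 6 immune cell markers was 1555, 1840.0 and 2164 in heterozygous colons, against 1076, 1191 and 1537 in wild-type colons, without overlap. Ptprc, the leukocyte antigen CD45, was the brightest of them, and the other 5 markers together were at 667, 667 and 769 in heterozygous colons, against 568, 640 and 706 in wild-type colons, with overlap. Their part in the members' values was not tested.

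The intervals limit how large a difference these arrays leave room for. At the brightest probe set, the 95% interval of the fold change lay within 1.5-fold in either direction for 80 of the 82 genes (97.6%). For 40 it lay within 1.2-fold. Over all tested genes the interval lay within 1.5-fold for 72.9%. Members are brighter than most genes, and over 488 other tested genes with signal between the members' quartiles it was 91.0%. The 2 exceptions were Cox7a1 and Cox8c, both tissue-restricted forms of complex IV subunits. Dimmer probe sets of several other genes also reached past 1.5-fold. Examples on the log2 scale were those of Sdhd (-1.25 to -0.36), Cox5a (-1.04 to 0.23) and Cox6c (-0.07 to 0.61). The fitted difference itself was under 0.1 on the log2 scale for 69 members (84.1%), against 46.8% of all tested genes and 61.5% of the 488 genes of like signal. Groups did not overlap for 2 of the 82 genes, Ndufs1 and Uqcrb, both higher in heterozygous colons, and for 0 in the other direction. Over all tested genes the groups failed to overlap for 10.7%, with 5.58% higher and 5.07% lower in heterozygous colons.

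**Figure D1:**
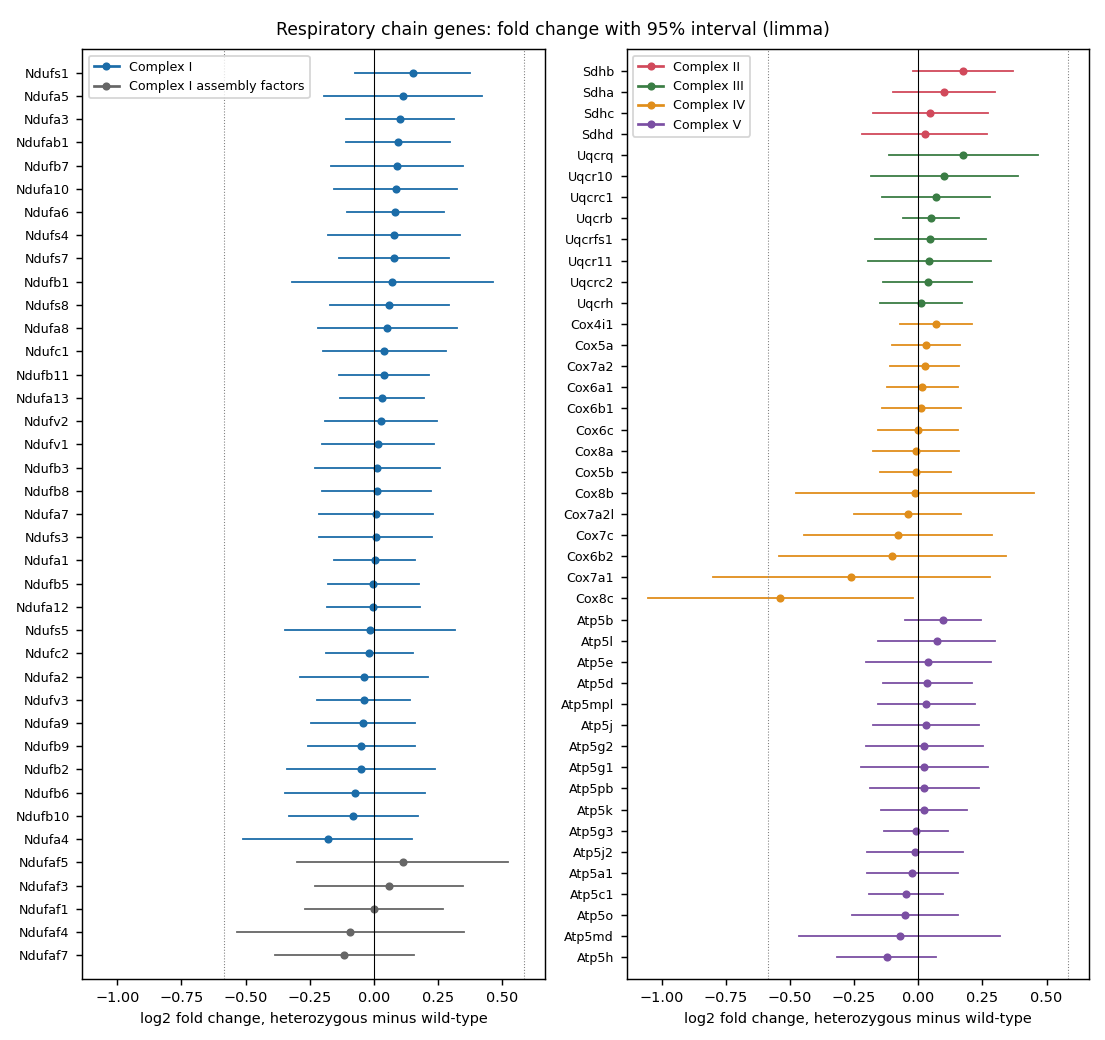
Log2 fold change of the 82 tested genes, heterozygous minus wild-type (horizontal axis), with the 95% interval of limma as a line; genes are sorted within complexes and the dotted lines stand at 1.5-fold. All intervals but that of Cox8c cross 0, and only Cox7a1 and Cox8c reach past a dotted line.

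Complex I had genes on both sides of 0, with 22 of its 34 genes higher and 12 lower in heterozygous colons, a median log2 fold change of 0.02 and a range of -0.18 to 0.15. Its 6 measured core subunits, all but Ndufs3 carriers of the flavin or of iron-sulfur clusters, were all higher, with a median of 0.04. The smallest of these differences was that of Ndufs3, at 0.006. Its 28 accessory subunits were divided, 16 higher and 12 lower, with a median of 0.01. No complex I gene had an unadjusted p under 0.05. Of the 34 genes 30 were higher without wild-type colon 1, 12 without wild-type colon 2 and 16 without wild-type colon 3. Ndufs1, the core subunit with the most iron-sulfur clusters, had the smallest p of the complex. It read 2517, 2527 and 2927 in heterozygous colons, against 2344, 2424 and 2388 in wild-type colons. Every heterozygous colon lay above every wild-type colon, and colon 3 of the heterozygous group stood above the other two. The log2 fold change was 0.15 (95% interval -0.07 to 0.38, limma adjusted p = 0.917).

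The other core subunits sat closer to 0. Ndufs7, which holds the cluster that reduces ubiquinone, differed by 0.08 on the log2 scale, and Ndufs8, which holds the pair of clusters before it, by 0.06. Ndufv1, the subunit that binds NADH and the flavin, differed by 0.02, and its neighbour Ndufv2 by 0.03. Ndufs8 and Ndufv2 were at -0.02 and -0.04 without wild-type colon 2, and Ndufv1 was at -0.04 without wild-type colon 3. Ndufv1 read 3486, 3523 and 3415 in heterozygous colons, against 3811, 3368 and 3154 in wild-type colons. The heterozygous values lay between the highest and the lowest wild-type value, so the wild-type group enclosed the heterozygous one.

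Among the accessory subunits Ndufa4, a protein first assigned to complex I and since found in complex IV, had the most negative fold change and the widest spread of the complex. It read 7329, 5092 and 5765 in heterozygous colons, against 7336, 5743 and 7443 in wild-type colons. Each group held both high and low values, so they overlapped, and the log2 fold change of -0.18 (95% interval -0.51 to 0.15, limma adjusted p = 0.926) was smaller than the SD of 0.24 between arrays of 1 genotype. The summed signal of 7 smooth muscle markers was 46083, 36722 and 40048 in heterozygous colons, against 42222, 37472 and 52329 in wild-type colons. Colons 1 and 3 of the wild-type group and colon 1 of the heterozygous group were the 3 highest in both measures, and the part of muscle content in the Ndufa4 values was not tested. Ndufab1, the mitochondrial acyl carrier protein, read 4362, 4574 and 4592 in heterozygous colons, against 4524, 3853 and 4320.3 in wild-type colons (log2 fold change 0.09). Ndufa3, a small subunit of the membrane arm, read 7652, 6832 and 8256 in heterozygous colons, against 7655, 6612 and 6912 in wild-type colons (log2 fold change 0.10). Both sets of values overlapped. Ndufc2, another membrane-arm subunit, had the smallest spread of the complex, an SD of 0.06, and read 6623, 6403 and 6259 in heterozygous colons, against 6903, 6368 and 6257 in wild-type colons.

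The 5 assembly factors of complex I, which help build the complex and do not stay in it, were 2 higher and 3 lower, with a median log2 fold change of 0.00. Ndufaf4 had the widest spread, an SD of 0.31. It read 816, 894 and 811 in heterozygous colons, against 1232, 676 and 859 in wild-type colons. Wild-type colon 1 was the highest and wild-type colon 2 the lowest of the 6, with the heterozygous colons between them. Ndufaf5, a hydroxylase of the core subunit Ndufs7, read 204, 242 and 254 in heterozygous colons, against 265, 167 and 221 in wild-type colons (log2 fold change 0.11). Ndufaf7, a methyltransferase, read 358, 338 and 341 in heterozygous colons, against 405, 370.2 and 353 in wild-type colons, with a log2 fold change of -0.12 and the smallest spread of the 5. Ndufaf3, a partner of Ndufaf4, differed by 0.06 on the log2 scale. Without wild-type colon 1 the median of the 5 was 0.14.

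All 4 genes of complex II were higher in heterozygous colons at their brightest probe set, with a median log2 fold change of 0.07, and 0 passed the test or had an unadjusted p under 0.05. With all probe sets of a gene averaged, Sdhc and Sdhd were lower, at -0.05 and -0.39, and without heterozygous colon 3 or wild-type colon 3 the count was 3 of 4. Sdhb, the iron-sulfur subunit that carries electrons from the flavin to the membrane, had the smallest p of any member gene higher in heterozygous colons. It read 8137, 8628 and 9088 in heterozygous colons, against 8320.4, 7716 and 6902 in wild-type colons. Wild-type colon 1 lay above heterozygous colon 1, so the groups overlapped, and wild-type colon 3 was the lowest of the 6. The log2 fold change was 0.17 (95% interval -0.02 to 0.37, unadjusted p = 0.074, limma adjusted p = 0.906). Sdha, the flavoprotein that oxidises succinate, read 4048, 3799.6 and 4302 in heterozygous colons, against 3954, 3755 and 3624 in wild-type colons. Its log2 fold change was 0.10 (95% interval -0.10 to 0.30). The membrane anchors Sdhc and Sdhd, which hold the haem and bind ubiquinone, were nearer to 0. Sdhc read 1898, 1927 and 1933 in heterozygous colons, against 1999, 1762 and 1816 in wild-type colons (log2 fold change 0.05). Sdhd read 3251, 3461 and 3974 in heterozygous colons, against 3693, 3620.3 and 3178 in wild-type colons at its brightest probe set (log2 fold change 0.02), and both overlapped.

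All 8 genes of complex III were likewise higher in heterozygous colons at their brightest probe set, with a median log2 fold change of 0.05 and a range of 0.01 to 0.17, and 0 passed the test or had an unadjusted p under 0.05. With all probe sets of a gene averaged, Uqcrb and Uqcr10 were lower, at -0.06 and -0.02. The count was 6 of 8 without wild-type colon 2, 5 without wild-type colon 3 and 7 without heterozygous colon 3. Uqcrq, a small subunit, had the largest fold change and the widest spread. It read 5192, 5128 and 5678 in heterozygous colons, against 5693, 3935 and 4684 in wild-type colons. Wild-type colon 1 was the highest of the 6 and wild-type colon 2 the lowest. The log2 fold change was 0.17 (95% interval -0.12 to 0.46, limma adjusted p = 0.924). Uqcrb, the small subunit known as the ubiquinone-binding protein, had the smallest spread of all members, an SD of 0.01. It read 18976, 19041 and 19024 in heterozygous colons, against 18146, 18547 and 18426 in wild-type colons. The groups did not overlap, but the difference was 0.05 on the log2 scale (95% interval -0.06 to 0.16), and the brightest probe set on each array read only 19988 to 21905, so this probe set stood near the top of the scale.

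Among the larger subunits of complex III, the wild-type range enclosed the heterozygous values of the core proteins Uqcrc1 and Uqcrc2 and of the Rieske iron-sulfur protein Uqcrfs1. Uqcrc1 read 6064, 6390.3 and 6639 in heterozygous colons, against 6672, 6169 and 5405 in wild-type colons (log2 fold change 0.07). Uqcrfs1 read 5359.5, 5486 and 5629 in heterozygous colons, against 5998, 5215 and 4790.0 in wild-type colons (log2 fold change 0.05). In both, colon 1 of the wild-type group was the highest of the 6 and colon 3 of that group the lowest. Uqcrc2 differed by 0.04 and the small subunit Uqcr10 by 0.10 on the log2 scale.

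Complex IV holds subunits common to most tissues and forms restricted to some. The 9 subunits of most tissues were 5 higher and 4 lower in heterozygous colons, with a median log2 fold change of 0.01 and a range of -0.08 to 0.07. Over all 14 tested genes of the complex 5 were higher and 9 lower, but 9 and 5 with array medians centred, and 10 and 4 without wild-type colon 1. Cox4i1, the regulatory subunit that binds ATP, read 14624, 14762 and 14259 in heterozygous colons, against 14768, 13738 and 13132 in wild-type colons. Its log2 fold change was 0.07 (95% interval -0.07 to 0.21, limma adjusted p = 0.937). Cox5a, which lies on the matrix side next to Cox4i1, had the smallest spread of the complex, an SD of 0.04, and read 12676, 12374 and 12500.2 in heterozygous colons, against 12822, 12022 and 11991 in wild-type colons. Cox5b, the zinc-binding subunit, differed by -0.01, Cox6a1 by 0.02, Cox6b1 by 0.01, Cox7a2 by 0.02 and Cox8a by -0.01 on the log2 scale. The Cox7a2-like gene Cox7a2l, whose product joins complexes III and IV into supercomplexes, differed by -0.04. The genotypes overlapped in each of these genes. Of their signs, those of Cox5a and Cox6b1 turned with quantile normalization and those of Cox5b and Cox8a with array medians centred.

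The 6 forms of complex IV subunits known from single tissues, such as heart, skeletal muscle, lung and testis, had low signal beside most members. The brightest of them, Cox7a1, had a mean of 617, above the median of 486 over all tested genes. Cox7c, a subunit of most tissues, was dimmer than Cox7a1, at a mean of 308 in heterozygous and 328 in wild-type colons (SD 0.21 on the log2 scale). Cox4i2, the form of Cox4i1 known from lung, read 58.4, 43.1 and 53.2 in heterozygous colons, against 67.5, 38.3 and 65.8 in wild-type colons, and Cox6a2, the form of Cox6a1 known from heart and skeletal muscle, read 50.8, 55.4 and 67.7 in heterozygous colons, against 102, 109 and 47.7 in wild-type colons. Neither passed the filter. The other 4 were lower in heterozygous colons, though Cox8b turned sign with quantile normalization, with centred medians and without any 1 of heterozygous colons 1 and 2 and wild-type colon 1, with a median log2 fold change of -0.18 and a median SD of 0.31. Cox8c, the form of Cox8a known from testis, was the 1 member gene with an unadjusted p under 0.05. Among all tested genes that share was 5.34%. It read 152, 186 and 113 in heterozygous colons, against 295, 214 and 172 in wild-type colons. Heterozygous colon 2 lay above wild-type colon 3, so the groups overlapped, and the log2 fold change of -0.54 (95% interval -1.05 to -0.02) had a limma adjusted p of 0.86.

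Cox7a1, the form of Cox7a2 known from muscle and brown fat, had the largest spread of all members, an SD of 0.39. It read 437, 716 and 518 in heterozygous colons, against 785, 783 and 460.3 in wild-type colons. Colons 1 and 2 of the wild-type group and colon 2 of the heterozygous group were high, and the other 3 were low. The log2 fold change was -0.26 (95% interval -0.80 to 0.28, limma adjusted p = 0.937). The summed signal of 4 fat markers was 12371, 15676 and 15384 in heterozygous colons, against 16303, 17633 and 10946 in wild-type colons. The ileal marker sum was 17627, 31411 and 19637 in heterozygous colons, against 24101, 37239 and 15403 in wild-type colons. The 3 colons high in Cox7a1 were the 3 highest in both sums, but the fat sum of heterozygous colon 3, which was low in Cox7a1, was close to that of heterozygous colon 2. The summed signal of 8 skeletal or cardiac muscle markers ran otherwise, at 1307, 1049 and 1066 in heterozygous colons, against 1205, 844 and 944 in wild-type colons. The part of these tissues in the Cox7a1 values was not tested, and the brown fat marker Ucp1 read 3.9 to 34.4 over the 6 arrays. Cox6b2, the testis form of Cox6b1, differed by -0.10 on the log2 scale. Cox8b, the muscle form of Cox8a, differed by -0.01, or by 0.01 with quantile normalization, and both had overlapping groups.

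The 17 genes of complex V were 10 higher and 7 lower in heterozygous colons, with a median log2 fold change of 0.02 and a range of -0.12 to 0.10, and no unadjusted p lay under 0.05. The number higher was 13 without wild-type colon 1, 6 without wild-type colon 2 and 5 without wild-type colon 3. Its catalytic head (F1) had 5 measured genes, 3 higher and 2 lower. Atp5b, the catalytic beta subunit, had the smallest p of the complex. It read 9842, 9635 and 9418 in heterozygous colons, against 9492, 8787 and 8756 in wild-type colons. Only wild-type colon 1 reached into the heterozygous range, and the log2 fold change was 0.10 (95% interval -0.05 to 0.25, limma adjusted p = 0.917). Its partner Atp5a1, the alpha subunit, read 8238, 8570.5 and 7288 in heterozygous colons, against 8295, 8058 and 8079.7 in wild-type colons (log2 fold change -0.02). Atp5c1, the rotating gamma subunit, read 9639, 9081 and 9471 in heterozygous colons, against 10052, 9520.4 and 9580.4 in wild-type colons (log2 fold change -0.05, 95% interval -0.19 to 0.10).

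The peripheral stalk, which holds the head still, was 2 higher and 2 lower. Atp5h, its subunit d, had the most negative fold change of the complex. It read 8225, 7343 and 7146 in heterozygous colons, against 8912, 8097 and 7734 in wild-type colons. Heterozygous colon 1 lay above 2 of the wild-type colons, and the log2 fold change was -0.12 (95% interval -0.32 to 0.07). The other Atp5h probe set differed by 0.09 in the other direction. Atp5o, the oligomycin-sensitivity protein that joins stalk and head, differed by -0.05. The 3 genes Atp5g1, Atp5g2 and Atp5g3, which encode 1 and the same mature c-ring protein with different import sequences, differed by 0.02, 0.02 and -0.01 on the log2 scale, with Atp5g3 at 0.01 when array medians were centred. Atp5g3 read 14363, 14054 and 14475 in heterozygous colons, against 14825, 14218 and 14117 in wild-type colons, the smallest spread of the complex with an SD of 0.03. Atp5md, a small membrane subunit that holds ATP synthase dimers together, had the largest, an SD of 0.27. It read 1720.5, 2301 and 1727 in heterozygous colons, against 1879.6, 2521 and 1676 in wild-type colons, with colon 2 the highest in both genotypes. Atp5l, subunit g of the membrane part, differed by 0.07.

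Several genes were measured by more than 1 probe set, and these did not always point the same way. Of 41 genes with several tested probe sets, 18 had fold changes of opposite sign, and in 11 the fold changes spanned more than 0.2 on the log2 scale. Sdhd gave the widest disagreement. Its dimmer probe set, of a type (_x_at) whose probes may also match other transcripts, read 126, 117 and 109 in heterozygous colons, against 168, 280.3 and 216 in wild-type colons. Here the groups did not overlap, and the log2 fold change of -0.81 (95% interval -1.25 to -0.36) had an unadjusted p of 0.0025 and a limma adjusted p of 0.588. The brightest Sdhd probe set, given above, differed by 0.02. Over all tested probe sets the groups did not overlap for 10.4%.

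Ndufb5, an accessory subunit of complex I named here after its values were seen, held the other probe set with an unadjusted p under 0.05 that did not represent its gene. That probe set read 3190.4, 3660.2 and 2618 in heterozygous colons, against 3745, 3649 and 4191 in wild-type colons, with heterozygous colon 2 just above wild-type colon 2, and a log2 fold change of -0.30 (limma adjusted p = 0.865). The brightest Ndufb5 probe set read 6342, 5974 and 5878 in heterozygous colons, against 6506, 5819.6 and 5905 in wild-type colons, a log2 fold change of 0.00. Within Cox5a, the dimmest probe set read 2532, 6114 and 3366 in heterozygous colons, against 4573, 6234 and 4245 in wild-type colons, an SD of 0.50 where the brightest one had 0.04. The dimmer probe set of Uqcrc2 had an SD of 0.30, and the brightest 0.08. The 6 probe sets of Ndufs8 gave log2 fold changes of -0.32 to 0.14. For Sdhc, Uqcrb and Uqcr10 too a dimmer probe set had the opposite sign, at -0.14 for Sdhc, -0.17 for Uqcrb and -0.18 for Uqcr10.

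**Figure D2:**
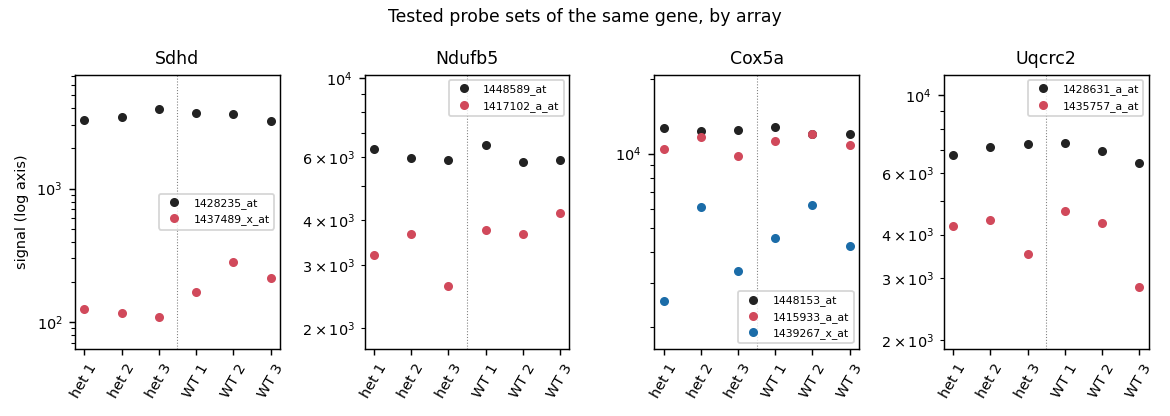
Signal (vertical log axes) of every tested probe set of Sdhd, Ndufb5, Cox5a and Uqcrc2 on each array, the 3 heterozygous (het) colons left of the dotted line and the 3 wild-type (WT) colons right of it. The black points, the brightest probe set, run level across the arrays, whereas the dimmer Sdhd probe set is lower in all 3 heterozygous colons and the dimmest Cox5a probe set varies within both genotypes.

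Members were bright and varied little from array to array. Their mean signal ran from 144 to 18693 with a median of 5232, in the units of the deposited tables, where only 3.83% of tested genes lay above that median. By complex the median signal was 4376 for complex I, 3722 for complex II, 5818 for complex III, 9266 for complex IV and 7910 for complex V. Brightness depends on the probes as well as on the transcript, so these levels do not rank the genes. The SD within a genotype, on the log2 scale, had a median of 0.11 over the 82 genes, against 0.17 over all tested genes and 0.13 over the 488 other tested genes whose signal lay between the quartiles of the members' (2841 and 7881). It was 0.12 for complex I, 0.09 for complex II, 0.12 for complex III, 0.07 for complex IV and 0.11 for complex V. Without wild-type colon 1 it was 0.08 for complex I and 0.06 for complex III, and with all probe sets of a gene averaged it was 0.12 for complex IV. Within complex IV it was 0.07 for the subunits of most tissues and 0.31 for the tissue-restricted forms. For 11 members it was above 0.2.

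**Figure D3:**
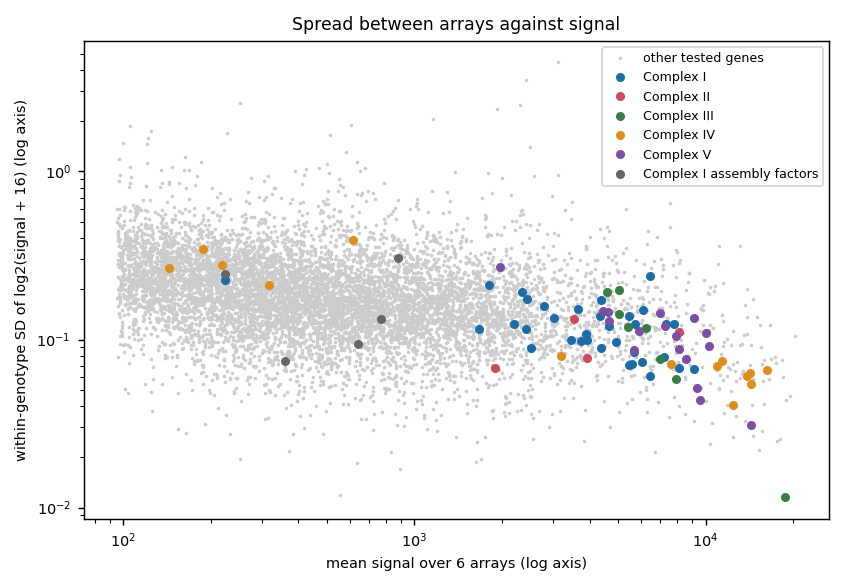
Within-genotype SD of log2(signal + 16) (vertical log axis) against mean signal over the 6 arrays (horizontal log axis), with 1 point per tested gene, members coloured by complex and all others grey. Most members lie at the bright, low-spread end, with a median SD of 0.11 against 0.17 over all tested genes. The 4 tissue-restricted complex IV forms are dimmer and wider in spread than most members.

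What spread there was ran together across most complexes, and 1 array stood out. Wild-type colon 1 was the highest of the 6 for 54 of the 82 genes (65.9%), where it was the highest for 16.1% of all tested genes. The next was heterozygous colon 3, the highest for 15 members (18.3%), against 20.9% of all tested genes. Wild-type colons 2 and 3 were the lowest for 29 and 33 members (35.4% and 40.2%), against 19.9% and 15.5% of all tested genes. Over the 488 other tested genes of like signal, wild-type colon 1 was the highest for 21.5%. Wild-type colons 2 and 3 were the lowest for 20.9% and 24.8% of these. Averaged over the 82 genes, the deviation from each gene's own mean was 0.00, 0.00 and 0.01 on the log2 scale in heterozygous colons, against 0.12, -0.07 and -0.07 in wild-type colons. The members share their arrays, so the 82 genes are not independent observations of this. Other settings were added after seeing the data. Wild-type colon 1 was the highest for 48 members after quantile normalization, against 18.2% of all tested genes. With array medians centred it was the highest for 66 members, against 22.3% of all tested genes. With all probe sets of a gene averaged it was the highest for 56 members.

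Wild-type colon 1 was the most often highest array in 4 of the 5 complexes. It was the highest for 24 of 34 genes of complex I, 6 of 8 of complex III, 9 of 14 of complex IV and 11 of 17 of complex V, and for 3 of the 5 assembly factors. Wild-type colon 2 did not run low in complex IV. There it was the lowest for 1 of 14 genes (7.14%), with a mean deviation of 0.01. Complex II differed in that heterozygous colon 3 was the highest for 3 of its 4 genes, with a mean deviation of 0.13, and wild-type colon 3 the lowest for 3, with -0.14. Heterozygous colon 3 was also above the mean for all 8 genes of complex III, by 0.09. Cell type markers differed among themselves in this. The 8 colonocyte markers deviated by -0.22, 0.15 and 0.15 in heterozygous colons, against 0.04, 0.11 and -0.24 in wild-type colons, so wild-type colon 1 was not their extreme. The smooth muscle markers deviated by 0.15, -0.25 and -0.06 in heterozygous colons, against -0.04, -0.18 and 0.39 in wild-type colons. The 3 tested skeletal or cardiac muscle markers deviated by 0.31, 0.09 and -0.11 in heterozygous colons, against 0.27, -0.29 and -0.27 in wild-type colons. On average wild-type colon 1 thus lay above the mean and the other wild-type colons below it, as for the members. Ckm, the brightest of the 3, ran otherwise, at 482 in wild-type colon 1 and 530 in wild-type colon 3. Heterozygous colon 1 was the highest for 2 of the 3 markers, but for only 3 of the 82 members. The 3 tested fat markers deviated by -0.28, 0.11 and 0.24 in heterozygous colons, against 0.21, 0.23 and -0.52 in wild-type colons. The part of muscle or fat in the members' values was not tested.

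**Figure D4:**
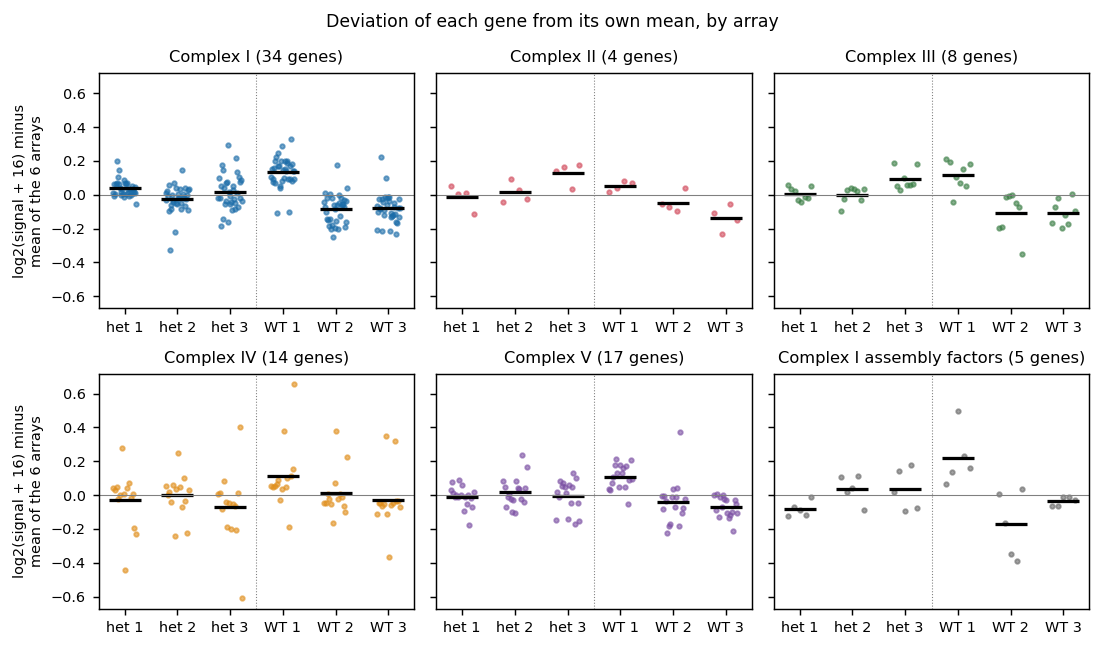
Deviation of each tested gene from its own mean over the 6 arrays, as log2(signal + 16) (vertical axis), by array (horizontal axis, heterozygous colons left of the dotted line and wild-type colons right of it); points are genes, bars their mean and panels the complexes. Wild-type colon 1 lies above 0 in every panel, at 0.13 for complex I and 0.22 for the assembly factors, and wild-type colons 2 and 3 lie mostly below it.

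The heterozygous colons lay closer together than the wild-type colons. The heterozygous range lay wholly inside the wild-type range for 47 of 82 members (57.3%). This share was 24.5% over all tested genes and 27.5% over the 488 other genes of like signal. The reverse held for 4 members (4.88%), against 14.5% of all tested genes and 10.7% of the 488. The median SD was 0.06 among heterozygous and 0.13 among wild-type colons over the members, against 0.15 among heterozygous and 0.17 among wild-type colons over all tested genes. Over the 488 other genes of like signal it was 0.11 among heterozygous and 0.13 among wild-type colons, so the members' wild-type spread was near that of these genes and their heterozygous spread was narrower. The members' median within-genotype SD was 0.11 with all arrays and 0.08 without wild-type colon 1. Without wild-type colon 2 it was 0.11, and without wild-type colon 3 it was 0.10. The wild-type spread thus rested largely on 1 array, and with 3 colons in each group these are descriptions of these animals.

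The direction in which most members leaned depended on which wild-type colon was left out. With all arrays 51 of 82 members were higher in heterozygous colons. Without wild-type colon 1 the count was 69 of 82, the median log2 fold change was 0.08, against 0.00 over all tested genes, and 7 member probe sets had an unadjusted p under 0.05, 6 of them higher in heterozygous colons, with 5.33% of all tested probe sets. Among these were Sdhb (log2 fold change 0.24, limma adjusted p = 0.88), Uqcrq (0.31, limma adjusted p = 0.88) and the dimmer Sdhd probe set (-0.98, limma adjusted p = 0.581). Without wild-type colon 2 or wild-type colon 3 the median was -0.01 each time, and 34 and 36 members were higher. Leaving out a heterozygous colon left the median at 0.02. No member probe set passed the adjusted threshold with any of the 6 arrays left out, while over the whole array 38 of 13576 probe sets passed without heterozygous colon 1, 2 without wild-type colon 3 and 0 without each of the other 4.

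The genes around the chain were read in the same way, and again 0 passed the adjusted threshold in any of the 5 lists. At an unadjusted p under 0.05 there were 2 genes, both among the outer membrane and import genes, where the share over all tested genes was 5.34%. Of 8 measured electron carriers and chain proteins with other symbols, 6 were higher and 2 lower in heterozygous colons (median log2 fold change 0.04). Cyc1, the haem-carrying subunit of complex III, read 6427, 6851 and 6702 in heterozygous colons, against 7578, 6333 and 5819 in wild-type colons (log2 fold change 0.03), and Cycs, cytochrome c, read 5234, 5946 and 5884 in heterozygous colons, against 6274, 4905 and 4669 in wild-type colons (log2 fold change 0.12). Wild-type colon 1 was the highest of the 6 for both, and for 3 of the 8 genes of the list (37.5%). In the other lists it was the highest for 8 of 18 assembly factors, 3 of 15 tricarboxylic acid cycle and pyruvate dehydrogenase genes, 1 of 12 biogenesis regulators and 4 of 11 outer membrane and import genes. Over all tested genes this share was 16.1%. The biogenesis regulators had a mean deviation of -0.12 on that array, where the members had 0.12. Of 18 measured assembly factors of the complexes, 8 were higher and 10 lower (median -0.01). Only Sdhaf2 among them, higher in heterozygous colons, had groups that did not overlap. Of 15 measured genes of the tricarboxylic acid cycle and pyruvate dehydrogenase, 9 were higher and 6 lower (median 0.01). Citrate synthase (Cs), the enzyme often used as a gauge of mitochondrial content, read 3957, 4151 and 4039.8 in heterozygous colons, against 4293, 4302 and 4696 in wild-type colons. Its groups did not overlap, as for 10.7% of all tested genes, and its log2 fold change was -0.13 (limma adjusted p = 0.917).

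Of 12 tested regulators of mitochondrial biogenesis, 10 were higher and 2 lower in heterozygous colons, with a median log2 fold change of 0.10 and no unadjusted p under 0.05. Over all tested genes 51.5% were higher. The regulators' mean deviation was 0.02, 0.08 and 0.03 in heterozygous colons, against -0.12, -0.03 and 0.02 in wild-type colons. Tfb1m, a methyltransferase of mitochondrial ribosomal RNA, read 318, 341 and 351 in heterozygous colons, against 276, 236 and 317 in wild-type colons (log2 fold change 0.28, limma adjusted p = 0.907), without overlap. Ppargc1a, the coactivator PGC-1 alpha, read 439, 322 and 364 in heterozygous colons, against 236, 329.7 and 355 in wild-type colons (log2 fold change 0.29), with overlap. Esrra lay the other way, at 619, 713 and 530 in heterozygous colons, against 811, 716 and 689.5 in wild-type colons (log2 fold change -0.25, limma adjusted p = 0.912), also with overlap. Of 11 outer membrane and import genes, 7 were higher and 4 lower (median 0.05). The import receptor Tomm70a read 1019, 1019 and 913 in heterozygous colons, against 708, 812 and 819 in wild-type colons (log2 fold change 0.33, limma adjusted p = 0.794), without overlap. The chaperonin Hspd1 read 4257, 5536 and 5834 in heterozygous colons, against 4483, 3884 and 3755 in wild-type colons (log2 fold change 0.36, limma adjusted p = 0.794), and wild-type colon 1 lay above heterozygous colon 1. The receptor Tomm20 lay the other way, at 5779.9, 5814 and 4558 in heterozygous colons, against 6456, 6458 and 5949 in wild-type colons (log2 fold change -0.23), again without overlap. Hspa9, higher in heterozygous colons, was the other import gene without overlap. Over all tested genes the groups did not overlap for 10.7%.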

How the data were processed

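Proximal colon RNA of 6 mice was amplified, labelled with biotin and hybridised to 1 array each, per the labels' protocols. The authors deposited linear intensities, 1 per probe set and array; the submitters' processing notes name GCOS, without settings. In the deposited values the mean of heterozygous colon 1, with 2% of probe sets trimmed at each end, is 500. The trimmed means of the other arrays are not given here. Medians of the 6 arrays run from 156.8 to 168.2. Detection calls and scanner background were not used here, and the number of arrays limits the precision.

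After 64 control probe sets were left out, 20380 probe sets had 1 symbol in the platform annotation, 691 several and 1555 none, and the GRCm38.p6 gene table updated 0 symbols. The 8 probe sets that pair a member with another symbol were not used. Intensities entered as log2(signal + 16), which understates changes of dim genes. Probe sets below the 40th percentile of mean signal were left out, so 13576 probe sets and 8243 genes were tested. The genotype comparison used two-sided tests of limma 3.58.1 (R 4.3.3), lmFit followed by eBayes with trended variance, adjusted by Benjamini-Hochberg over all tested probe sets at a threshold of 0.05. Fold changes are heterozygous minus wild-type. A gene stands for its brightest probe set with 1 symbol. Spread is the residual SD within genotypes.

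The members, lists and tests were chosen with earlier results of these data known. Named were Mthfd1 and 47 member genes, which were all genes of complex II, per complex the 4 genes of smallest p, any with an unadjusted p under 0.05, those of largest and smallest spread, and fixed sets of core subunits and isoforms; other names were chosen after their values were seen or come from the pathway lists. Ndufa4l2, also in those sets, was not analysed here. Promoters came from RefSeq. The fitting steps were tested on simulated data. Replicate numbers did not pair the arrays: same-numbered arrays deviated together at r = -0.12, 0.50 and 0.05. Array correlations across probe sets ran from 0.957 to 0.981. Alternatives covered normalization, pseudocount, filter, variance model, array weights, probe sets, the replicate number as a block and each array left out.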

Additional observations from a re-analysis of the deposited data

How the results depend on the processing

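No member probe set had a limma adjusted p under 0.05 under any alternative run. Of 761 values of the 45 tested named members (Mthfd1 is given below) under these alternatives 0 passed, and the smallest adjusted p was 0.583. The median log2 fold change over the 82 genes ran from -0.01 to 0.08 with single arrays left out. It was 0.02 with the replicate number as a block, which pairs arrays by their number alone (2 of 6 arrays correlated best with their own number).

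The count of member probe sets with an unadjusted p under 0.05, 3 as reported, was 1 with array medians centred, 1 with the filter at the 60th percentile, 5 with the replicate block, and 2 to 7 with single arrays left out, the 7 without wild-type colon 1 and 5 without heterozygous colon 2. The cause was not tested. With all probe sets of a gene averaged, Mthfd1 stood at -0.89 on the log2 scale (limma adjusted p = 0.0426), and the median SD of complex IV was 0.117. With single arrays left out the median SD ran from 0.076 to 0.133 for complex I and from 0.061 to 0.136 for complex III, and the median log2 fold change of the complex I assembly factors from -0.053 to 0.14. The number of member genes highest in wild-type colon 1 was 48, 66 and 56 under 3 alternatives chosen after seeing the data. The share over all tested genes was 18.2% and 22.3% under the first 2 of these.

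Small log2 fold changes turned sign, none of them past the threshold. With quantile normalization Cox5a was -0.0037, Cox6b1 -0.012 and Cox8b 0.010. With array medians centred Atp5g3 was 0.0053, Cox5b 0.0034, Cox8a 0.0051 and Cox8b 0.0013. With all probe sets of a gene averaged Cox5a was -0.16, Cox5b 0.0089, Cox7a2l 0.0098, Sdhc -0.047, Sdhd -0.39, Uqcr10 -0.023 and Uqcrb -0.062. With single arrays left out 25 genes turned, and their values ran over these ranges: Atp5a1 -0.072 to 0.045, Atp5g1 -0.061 to 0.14, Atp5g2 -0.055 to 0.095, Atp5g3 -0.022 to 0.013, Atp5l -0.0012 to 0.18, Atp5md -0.21 to 0.096, Atp5o -0.10 to 0.041, Cox5b -0.037 to 0.028, Cox6a1 -0.024 to 0.051, Cox6b1 -0.015 to 0.061, Cox6b2 -0.27 to 0.048, Cox7a2l -0.089 to 0.00026, Cox8a -0.044 to 0.046, Cox8b -0.22 to 0.096, Ndufaf3 -0.0064 to 0.14, Ndufaf4 -0.29 to 0.14, Ndufaf5 -0.052 to 0.26, Ndufc2 -0.045 to 0.026, Ndufs8 -0.022 to 0.16, Ndufv1 -0.044 to 0.092, Ndufv2 -0.043 to 0.11, Sdhd -0.057 to 0.087, Uqcrc1 -0.012 to 0.14, Uqcrc2 -0.014 to 0.079, Uqcrfs1 -0.027 to 0.14.

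Limits: 3 arrays per genotype bound every comparison. A scaling of the arrays to a common mean would hide any change in total RNA per cell. Probe sets of 1 gene disagreed in sign for 18 of 41 genes.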
